A study of Mus musculus with 6 samples.

Results

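The vascular endothelial growth factor (VEGF) system was followed through 9 genes in RNA-seq of sorted mouse cardiac macrophages. They were taken by name: the ligands Vegfa, Vegfb, Vegfc and Pgf, the receptor tyrosine kinases Kdr, Flt1 and Flt4, and the co-receptors Nrp1 and Nrp2. They are 9 of the 35865 genes to which transcripts were summed and of the 16386 that passed the filter on low counts, and all 9 passed it. Their 45 annotated transcripts were also examined, 28 of which passed the same filter. A related ligand outside the 9, Vegfd, is given beside them.

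The macrophages came from hearts and descended from donor haematopoietic progenitor cells that were either Tet2 KO or Tet2 WT, with 3 libraries per genotype, all of the C57BL/6J strain. Per the title of the series, the host mice had not been conditioned, and the study concerned the decline of the heart with age in clonal haematopoiesis driven by Tet2. The deleted part of Tet2, the sort gate and the age of the mice are not given in the sources used here. Whether each library is a different mouse is not in the labels, and the p-values given here cover the variation among these 6 libraries, part or all of which could be technical.

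VEGF ligands are secreted dimers that bind receptor tyrosine kinases on endothelial cells and, in some settings, on monocytes and macrophages. VEGF-A, the main inducer of vessel sprouting and permeability, signals chiefly through VEGFR2, the product of Kdr. VEGF-B and placental growth factor (the product of Pgf) bind VEGFR1, the product of Flt1, a receptor that binds VEGF-A tightly and is also made in a soluble form that traps ligand. VEGF-C and VEGF-D act through VEGFR3, the product of Flt4, and drive the growth of lymphatic vessels. Neuropilins bind VEGF forms that carry a heparin-binding tail and also class 3 semaphorins.

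The coding stretches that set apart the measured Vegfa and Flt1 transcripts are shown first, because the deposited files hold values per transcript. Vegfa lies on chromosome 17 (GRCm38, minus strand, 46016993 to 46032369). Transcript Vegfa-207 has 8 exons, and its coding exons 6 and 7 encode heparin-binding sequence. Exon 6 is absent from both Vegfa transcripts with the most reads, Vegfa-202 and Vegfa-201. Exon 7 is present in Vegfa-202 and absent from Vegfa-201. Flt1 lies on chromosome 5 (minus strand, 147561604 to 147726011). Transcript Flt1-203 codes for 688 residues and ends in sequence that the full-length Flt1-202, which codes for 1333 residues, removes as intron. In the Flt1-203 stretch, the capitals mark the GT at which Flt1-202 splices. All 3 are written 5′ to 3′ on the coding strand, from GENCODE M21.
Vegfa exon 6, 72 bases, chr17:46022277-46022348: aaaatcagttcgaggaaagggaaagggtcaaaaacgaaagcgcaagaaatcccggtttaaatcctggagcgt
Vegfa exon 7, 132 bases, chr17:46020991-46021122: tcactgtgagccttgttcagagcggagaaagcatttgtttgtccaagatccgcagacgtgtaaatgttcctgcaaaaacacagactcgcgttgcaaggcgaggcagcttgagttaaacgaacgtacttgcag
Flt1-203 coding end, 92 bases, chr5:147639133-147639224: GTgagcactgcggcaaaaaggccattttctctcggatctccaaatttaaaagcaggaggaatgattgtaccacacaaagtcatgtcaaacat

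The 250 bases before the annotated start are printed for the 4 ligand genes, each of which had all Tet2 KO libraries below all Tet2 WT libraries. They come from RefSeq (GRCm38.p6), are written 5′ to 3′ on the gene's strand, and have each CG in capitals, since CG is the dinucleotide whose methylated form Tet2 oxidises. Methylation was not measured here.
Vegfa, minus strand, chr17:46032378-46032627: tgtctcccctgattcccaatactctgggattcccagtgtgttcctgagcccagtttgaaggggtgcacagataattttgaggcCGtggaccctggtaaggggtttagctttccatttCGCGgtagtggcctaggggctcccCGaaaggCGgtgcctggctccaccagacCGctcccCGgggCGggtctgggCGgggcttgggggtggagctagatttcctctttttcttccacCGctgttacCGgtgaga
Pgf, minus strand, chr12:85177314-85177563: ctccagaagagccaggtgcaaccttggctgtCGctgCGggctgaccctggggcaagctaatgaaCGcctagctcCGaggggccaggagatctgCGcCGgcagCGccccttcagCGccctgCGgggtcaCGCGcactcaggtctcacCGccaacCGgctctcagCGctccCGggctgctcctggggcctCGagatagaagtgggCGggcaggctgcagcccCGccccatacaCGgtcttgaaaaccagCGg
Vegfc, plus strand, chr8:54077282-54077531: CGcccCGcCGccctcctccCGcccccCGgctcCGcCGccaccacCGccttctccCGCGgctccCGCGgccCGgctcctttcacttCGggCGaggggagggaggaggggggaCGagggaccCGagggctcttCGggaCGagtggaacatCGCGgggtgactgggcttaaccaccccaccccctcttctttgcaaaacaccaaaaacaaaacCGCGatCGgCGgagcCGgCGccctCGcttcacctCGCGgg
Vegfb, minus strand, chr19:6987652-6987901: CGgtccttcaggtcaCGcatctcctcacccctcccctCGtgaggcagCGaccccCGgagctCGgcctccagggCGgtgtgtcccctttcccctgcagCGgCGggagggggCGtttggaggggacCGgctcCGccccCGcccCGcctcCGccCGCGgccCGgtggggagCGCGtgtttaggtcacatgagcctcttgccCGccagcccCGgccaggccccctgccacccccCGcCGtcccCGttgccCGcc

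These windows held 11 CG in Vegfa, 20 in Pgf, 30 in Vegfc and 26 in Vegfb, against a median of 6 over the 32851 RefSeq windows of the same length. A second RefSeq start of Vegfa and one of Pgf each had 7. The receptor genes had 16 (Kdr), 23 (Flt1) and 16 (Flt4), and the neuropilin genes had 11 (Nrp1) and 32 (Nrp2). The core letters of the hypoxia response element (ACGTG or GCGTG, on either strand, each of which contains a CG) were matched once in the printed Pgf window, at 2 places in that of Vegfb, and nowhere in the printed windows of Vegfa and Vegfc. The second Vegfa window had 2 matches and that of Pgf 0, and the Vegfd window had 0. Among the receptor and neuropilin genes, Kdr and Nrp2 had 2 matches each, Flt1 and Nrp1 had 1 each and Flt4 had 0. Of all windows, 38.6% held at least 1 match. A match describes letters only.

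The libraries held 37349505, 53586246 and 55771087 estimated counts for Tet2 KO, against 49883028, 53586473 and 51477060 for Tet2 WT. Tet2 itself was counted at 81.2, 82.6 and 78.2 CPM (counts per 1000000 of the library) in Tet2 KO libraries, against 57.5, 76.1 and 60.8 CPM in Tet2 WT libraries (log2 fold change 0.32 ± 0.14 (SE), edgeR adjusted p = 0.159). All Tet2 KO libraries lay above all Tet2 WT libraries for Tet2, a separation that 16.4% of all tested genes showed in that direction. The gene total therefore did not separate the genotypes downwards, and which exons the knockout lacks could not be read from these values. Of 16 pan-macrophage markers, 14 rose and 0 fell, with a summed level of 32647 to 38734 CPM in Tet2 KO, against 20833 to 28204 CPM in Tet2 WT. Without Tet2 KO replicate 3, 6 of them were called, and without Tet2 WT replicate 1 or replicate 3, 7 were. Only 1 was called without both libraries numbered 1. All 18 fibroblast markers fell, with sums of 2216 to 4184 CPM in Tet2 KO, against 16723 to 31167 CPM in Tet2 WT. The 20 vascular endothelial markers summed to 166 to 261 CPM in Tet2 KO, against 251 to 442 CPM in Tet2 WT. Of these, 3 fell, 0 rose and 17 were not called, with a median log2 fold change of 0.11. Among all tested genes, 6.11% were called higher and 10.1% lower. No marker of these 3 lists was at 0 in all Tet2 KO libraries. Marker sums use each library's own total, and all other CPM values are normalized by TMM, a scaling to a common set of genes.

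Of the 9 genes, 3 ligand genes fell in Tet2 KO, 0 rose, and 6 were not called (edgeR's quasi-likelihood test with Benjamini-Hochberg adjustment over all tested genes, threshold 0.05). Over all 16386 genes, 10.1% were called lower and 6.11% were called higher. That is 1652 lower and 1001 higher, against 1930 lower and 384 higher by limma on log2(TPM + 1), and 7728 lower and 21 higher where the libraries were scaled to the pan-macrophage markers. The median log2 fold change was −0.37 over the 9 genes and 0.00 over all tested genes. All 4 ligand genes had every Tet2 KO library below every Tet2 WT library, a separation that 18.1% of all tested genes showed in that direction and 16.4% in the other. The 5 receptor and co-receptor genes all overlapped between the genotypes.

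**Figure D1:**
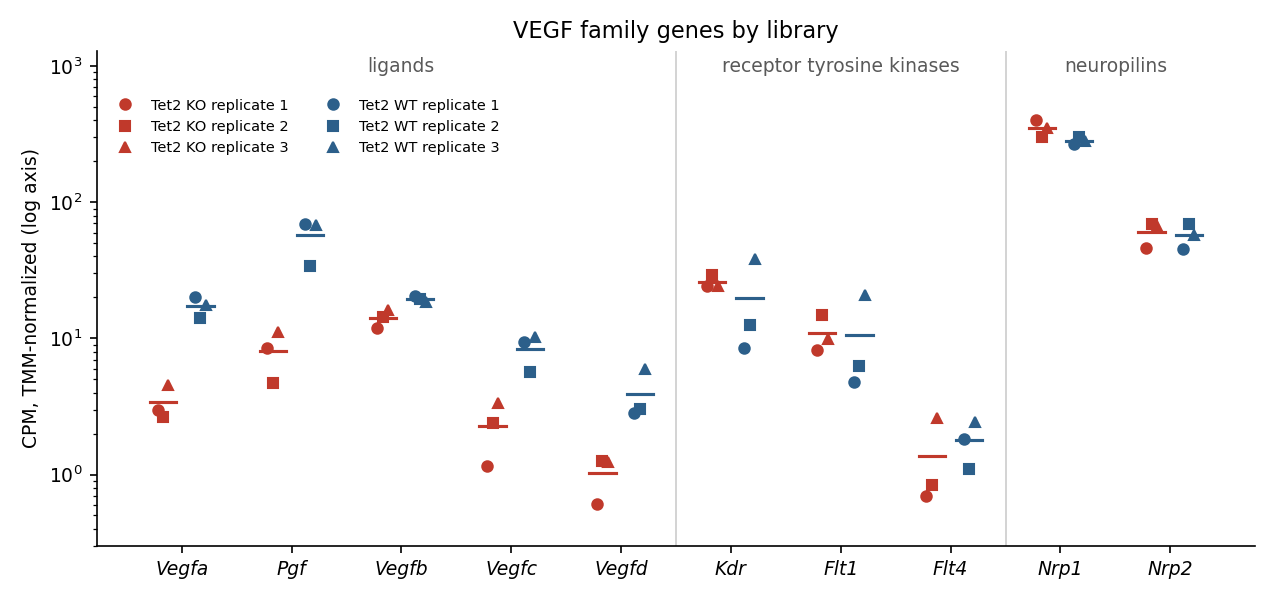
TMM-normalized CPM (log axis) of the 9 VEGF genes and Vegfd in each library, Tet2 KO in red at the left of each pair and Tet2 WT in blue at the right; symbols mark the replicate number and bars the mean of 3 libraries. The ligand genes lie apart between the genotypes, while Kdr and Flt1 span their widest range in Tet2 WT, where replicate 3 is the highest of the 6 libraries.

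Vegfa, the ligand of Kdr and Flt1, was at 3.0, 2.63 and 4.56 CPM in Tet2 KO libraries, against 20.1, 14.1 and 17.5 CPM in Tet2 WT libraries. The highest Tet2 KO library stayed below the lowest Tet2 WT library, and the mean CPM was 5.07-fold higher in Tet2 WT. On the log2 scale Vegfa fell by 2.34 ± 0.27 (SE; 95% interval −2.95 to −1.73; edgeR adjusted p = 0.000408). These values rest on 104, 135 and 238 estimated counts in Tet2 KO and 1051, 785 and 949 in Tet2 WT. Vegfa stayed called in each of the 6 fits that left out 1 library, with log2 fold changes between −2.61 and −2.18.

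Pgf, which encodes placental growth factor, an Flt1 ligand, had the largest fall of the 9 genes. It was at 8.47, 4.73 and 11.2 CPM in Tet2 KO libraries, against 69.7, 34.1 and 67.8 CPM in Tet2 WT libraries. Replicate 2 was the lowest library in each genotype, and the groups did not overlap. The log2 fold change was −2.81 ± 0.37 (95% interval −3.66 to −1.97; edgeR adjusted p = 0.00141), a mean 7.03-fold higher in Tet2 WT. It was called in all 6 fits without 1 library.

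Vegfc, the main lymphatic growth factor, was at 1.15, 2.37 and 3.33 CPM in Tet2 KO libraries, against 9.39, 5.64 and 10.2 CPM in Tet2 WT libraries. Every Tet2 KO library lay below every Tet2 WT library, and the log2 fold change was −1.87 ± 0.41 (95% interval −2.79 to −0.95; edgeR adjusted p = 0.0130). The call was lost without Tet2 WT replicate 1 (−1.77, edgeR adjusted p = 0.0601) and without Tet2 WT replicate 3 (−1.69, edgeR adjusted p = 0.0554). Vegfd, the other Flt4 ligand, was at 0.605, 1.26 and 1.23 CPM in Tet2 KO libraries, against 2.82, 3.02 and 5.97 CPM in Tet2 WT libraries. Vegfd fell by 1.92 ± 0.45 on the log2 scale (edgeR adjusted p = 0.0179), and its call was lost when either Tet2 KO replicate 1 or Tet2 WT replicate 3 was left out.

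Vegfb, an Flt1 ligand, differed least among the ligands. It was at 12, 14.5 and 16.1 CPM in Tet2 KO libraries, against 20.4, 19.5 and 18.4 CPM in Tet2 WT libraries. The ranges did not overlap, but the log2 fold change of −0.45 ± 0.17 (95% interval −0.84 to −0.07) did not pass the test (edgeR adjusted p = 0.110). On TPM (transcripts per 1000000), limma called it on both pseudocounts tried (−0.59, limma adjusted p = 0.0309 on log2(TPM + 1)). On that scale the median of all genes moved by −0.13.

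**Figure D2:**
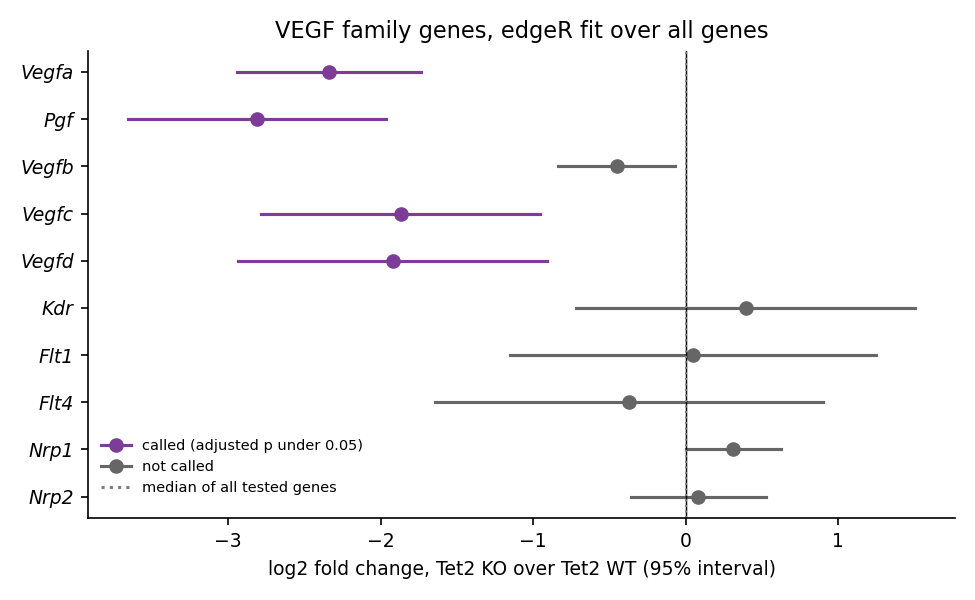
Log2 fold change, Tet2 KO over Tet2 WT, of each gene from the edgeR fit over all genes, with its 95% interval; purple marks genes called at an adjusted p under 0.05 and grey those not called. The ligands Vegfa, Pgf, Vegfc and Vegfd lie left of 0 with intervals that exclude it. The intervals of Vegfb (left of 0) and Nrp1 (right of 0) also exclude it, though neither gene is called. The intervals of Kdr, Flt1, Flt4 and Nrp2 span 0.

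Fibroblast markers were lower in the same libraries as the ligands, and the level of each ligand was set against them within each library, as mean log2(CPM + 0.5). In bulk samples such as these, fewer cells of a type and less RNA per cell cannot be told apart. Relative to the 18 fibroblast markers, Vegfa was 0.75 ± 0.23 log2 units higher in Tet2 KO than in Tet2 WT (SE, n = 3 each; two-sided exact permutation p = 0.1), Pgf was 0.21 ± 0.20 higher (exact permutation p = 0.4), Vegfc 1.23 ± 0.52 higher (exact permutation p = 0.2) and Vegfb 2.5 ± 0.39 higher (exact permutation p = 0.1). For Pgf the difference was about the size of its SE. Relative to the 16 pan-macrophage markers, Vegfa was at −8.02, −8.10 and −7.46 log2 units in Tet2 KO libraries and −4.50, −5.44 and −4.89 in Tet2 WT libraries, a difference of −2.91 ± 0.34 (exact permutation p = 0.1). On the same measure Pgf differed by −3.46 ± 0.56, Vegfc by −2.43 ± 0.52 and Vegfb by −1.16 ± 0.20 (exact permutation p = 0.1 for each). Each of these tests covers 20 assignments of labels, whose smallest p is 0.1. Over the 27 comparisons of a member with a marker list, the smallest Benjamini-Hochberg adjusted p was 0.169. The part of the fibroblast signal in the ligand results was not tested.

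TPM, which divides by transcript length, allows levels to be compared between genes. In Tet2 KO the 5 ligand genes, Vegfd included, summed to 26.8, 25.6 and 37.7 TPM, against 120, 76.3 and 124 TPM in Tet2 WT. These sums include transcripts without a coding sequence. The make-up of the ligand TPM also differed between the genotypes. Vegfb held 56.8%, 67.6% and 54.9% of the ligand TPM in Tet2 KO libraries, against 23.5%, 34.5% and 21.3% in Tet2 WT libraries. Pgf held 29.0%, 16.4% and 28.4% in Tet2 KO libraries, against 58.6%, 44.4% and 57.2% in Tet2 WT libraries. Vegfb was the most abundant ligand transcript in every Tet2 KO library and Pgf in every Tet2 WT library. The Vegfa share was 5.97% ± 1.25 in Tet2 KO and 9.36% ± 0.79 in Tet2 WT (SD, n = 3 each).

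**Figure D3:**
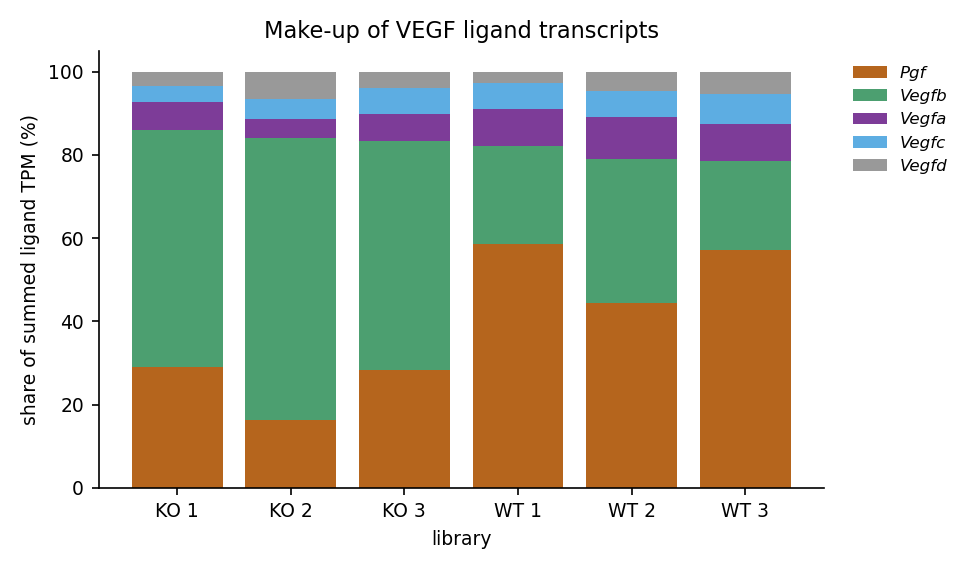
Share of the summed ligand TPM (%) held by each ligand gene in each library, Tet2 KO at the left and Tet2 WT at the right. The Vegfb part takes 54.9% to 67.6% in Tet2 KO and 21.3% to 34.5% in Tet2 WT, and the Pgf part 16.4% to 29.0% in Tet2 KO and 44.4% to 58.6% in Tet2 WT.

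In order of TPM, Tet2 KO libraries had Nrp1 (135 ± 21.3), Vegfb (17.8 ± 2.77), Nrp2 (15.2 ± 2.60), Pgf (7.56 ± 3.26), Kdr (5.89 ± 0.58), Flt1 (3.46 ± 0.92), Vegfa (1.82 ± 0.64), Vegfc (1.56 ± 0.75) and Flt4 (0.29 ± 0.22; SD, n = 3). Among neighbours in that order, Vegfb and Nrp2 overlapped, as did Pgf and Kdr, and Vegfa and Vegfc. Tet2 WT libraries had Nrp1 (122 ± 7.26), Pgf (58.5 ± 21.3), Vegfb (27.0 ± 1.10), Nrp2 (14.8 ± 3.30), Vegfa (9.86 ± 1.76), Vegfc (7.09 ± 2.15), Kdr (5.09 ± 4.13), Flt1 (3.96 ± 3.79) and Flt4 (0.42 ± 0.17; SD, n = 3). There, Vegfa overlapped Vegfc, Vegfc overlapped Kdr, and Kdr overlapped Flt1. Nrp1 was the highest and Flt4 the lowest of the 9 genes in each genotype.

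Kdr, the main signalling receptor of VEGF-A, was at 24.1, 29.1 and 24.5 CPM in Tet2 KO libraries, against 8.49, 12.5 and 38.1 CPM in Tet2 WT libraries. Tet2 WT replicates 1 and 2 lay below all Tet2 KO libraries and replicate 3 above them all. The log2 fold change was 0.39 ± 0.48 (95% interval −0.72 to 1.51; edgeR adjusted p = 0.664). Without Tet2 WT replicate 3 it was 1.32 ± 0.23 and was called (edgeR adjusted p = 0.00975), so this library alone decides the call.

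Flt1, the high-affinity receptor that also binds Pgf and Vegfb products, showed the same library order. It was at 8.15, 14.9 and 9.98 CPM in Tet2 KO libraries, against 4.79, 6.27 and 20.9 CPM in Tet2 WT libraries. The log2 fold change was 0.05 ± 0.53 (95% interval −1.15 to 1.25; edgeR adjusted p = 0.965), and without Tet2 WT replicate 3 it was 1.01 ± 0.34 (edgeR adjusted p = 0.0969). Flt4, the VEGF-C receptor of lymphatic endothelium, was at 0.691, 0.836 and 2.59 CPM in Tet2 KO libraries, against 1.83, 1.10 and 2.43 CPM in Tet2 WT libraries. Its groups overlapped (−0.37 ± 0.57; edgeR adjusted p = 0.732), on 24 to 135 estimated counts in Tet2 KO and 61 to 132 in Tet2 WT.

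Tet2 WT replicate 3 was also the highest of the 6 libraries for 11 of the 20 vascular endothelial markers, and the highest of the Tet2 WT libraries for 16. Of those 20 markers, 0 rose and 3 fell (Tek, Eng and Clec14a), and their median log2 fold change was 0.11. Over all tested genes, 6.11% were called higher and 10.1% lower, with a median of 0.00. Without Tet2 WT replicate 3 the counts of these endothelial markers were 0 higher and 1 lower with a median of 0.52. The lower count was also 1 without Tet2 KO replicate 1, Tet2 KO replicate 3 or Tet2 WT replicate 1. Relative to these markers, Kdr was at 2.18, 1.81 and 2.04 log2 units in Tet2 KO libraries and 0.72, 1.19 and 1.83 in Tet2 WT libraries, a difference of 0.76 ± 0.34 (SE; two-sided exact permutation p = 0.2). Flt1 differed by 0.38 ± 0.31 on the same measure (exact permutation p = 0.4). Relative to the pan-macrophage markers, Kdr differed by −0.04 ± 0.63 (exact permutation p = 1.0). Of 6 lymphatic endothelial markers, 2 fell (Pdpn and Foxc2) and 0 rose, with a median of −0.95 that lay between −2.83 and 0.92 in the fits without 1 library. In each of those fits 1 was called lower. Tet2 WT replicate 1 was the highest of the 6 libraries for 5 of these markers and Tet2 KO replicate 3 for 0. Mmrn1, picked from this list after its values were seen, was at 0.807, 0.233 and 15.9 CPM in Tet2 KO libraries, against 17.1, 0.324 and 0.0553 CPM in Tet2 WT libraries. The libraries with high Mmrn1, Tet2 KO replicate 3 and Tet2 WT replicate 1, were the highest and the third highest for Flt4. The second highest for Flt4, Tet2 WT replicate 3, had the lowest Mmrn1 of the 6 libraries. The part of endothelial RNA in the receptor values was not tested.

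**Figure D4:**
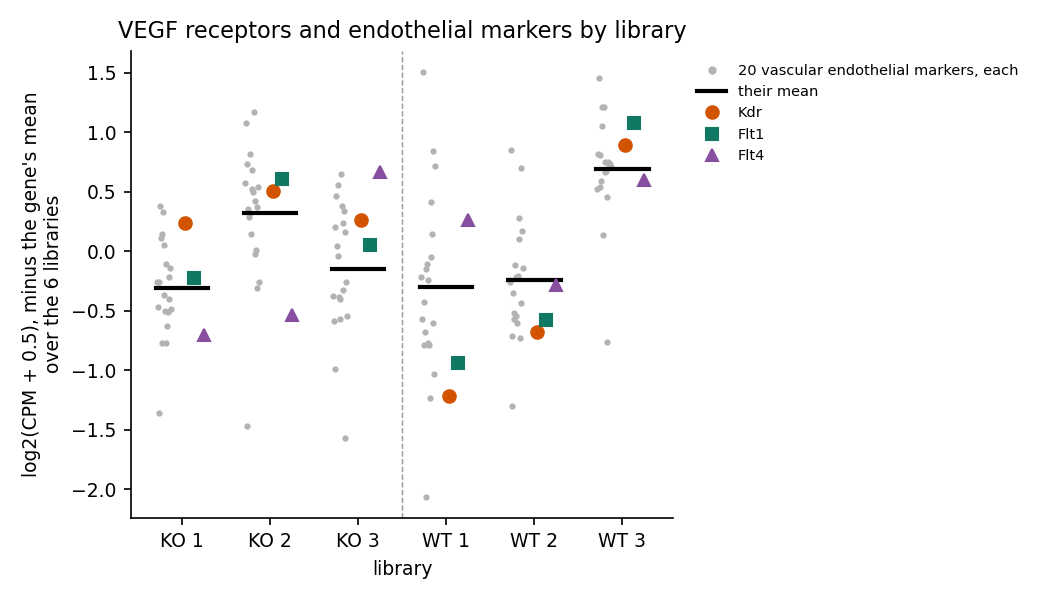
Log2(CPM + 0.5) minus the gene's mean over the 6 libraries, for Kdr, Flt1, Flt4 and each of the 20 vascular endothelial markers (grey dots; black bars are their mean), Tet2 KO at the left and Tet2 WT at the right. Kdr and Flt1 are lowest in Tet2 WT replicates 1 and 2 and highest in Tet2 WT replicate 3, the library in which the marker mean is also highest.

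Nrp1, the co-receptor that binds heparin-binding VEGF-A and semaphorin 3A, was at 401, 303 and 354 CPM in Tet2 KO libraries, against 267, 303 and 280.4 CPM in Tet2 WT libraries. Tet2 KO replicate 2 and Tet2 WT replicate 2 had nearly the same level, and the groups overlapped there. The log2 fold change was 0.31 ± 0.14 (95% interval 0.004 to 0.62, edgeR adjusted p = 0.168). It was called without Tet2 KO replicate 2 (0.42, edgeR adjusted p = 0.0493). Scaled to the pan-macrophage markers the sign turned and it was called (−0.40, edgeR adjusted p = 0.0499), on a scale that moved the median of all genes by −0.72. Nrp2, which binds VEGF-C and class 3 semaphorins, was at 46.4, 69.7 and 66.9 CPM in Tet2 KO libraries, against 45.5, 69.5 and 57.8 CPM in Tet2 WT libraries. Replicate 1 was the lowest library in each genotype, and the log2 fold change was 0.08 ± 0.20 (95% interval −0.36 to 0.53; edgeR adjusted p = 0.833). With macrophage scaling Nrp2 was called lower (−0.60, edgeR adjusted p = 0.0280). Nrp1 held 89.7% ± 2.57 of the neuropilin TPM in Tet2 KO and 89.2% ± 1.65 in Tet2 WT (SD, n = 3 each).

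Of the 28 member transcripts tested, 2 fell and 0 rose, against 2.66% called in either direction over the 53249 transcripts tested, 2.21% lower and 0.447% higher. How kallisto divided reads between transcripts of a gene is a model estimate, and transcripts that share most of their sequence are uncertain. Vegfa-202, which holds exon 7, was at 0.880, 0.367 and 1.01 TPM in Tet2 KO libraries, against 4.59, 3.27 and 4.57 TPM in Tet2 WT libraries (log2 fold change −2.35 ± 0.40, edgeR adjusted p = 0.0304). Vegfa-201, the short form without exons 6 and 7, was at 0.205, 0.761 and 0.816 TPM in Tet2 KO libraries, against 4.55, 2.85 and 3.51 TPM in Tet2 WT libraries. It missed the threshold (−2.47 ± 0.54, edgeR adjusted p = 0.0659), with no overlap between the genotypes. Pgf-201, which codes for 158 residues, held 87.3% to 90.2% of Pgf TPM in Tet2 KO and 92.8% to 93.6% in Tet2 WT, and fell by 2.90 ± 0.40 on the log2 scale (edgeR adjusted p = 0.0167). The count of called member transcripts was 0 without Tet2 KO replicate 1, Tet2 WT replicate 1 or Tet2 WT replicate 3, and 1 without Tet2 KO replicate 3 or Tet2 WT replicate 2.

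Shares within a gene were compared for 24 transcripts and transcript groups of Vegfa, Flt1, Nrp1 and Nrp2, taking single transcripts that held at least 5% of the gene's TPM. None of those of Vegfa or Flt1 separated the genotypes. Vegfa-202 held 47.5%, 31.5% and 41.4% of Vegfa TPM in Tet2 KO libraries, against 42.2%, 41.8% and 42.0% in Tet2 WT libraries (difference −1.85 ± 4.67 percentage points, SE; two-sided exact permutation p = 0.7). Vegfa-201 held 11.1%, 65.3% and 33.5% in Tet2 KO libraries, against 41.8%, 36.4% and 32.3% in Tet2 WT libraries, so the Tet2 KO libraries, with few Vegfa counts, spread more widely. The truncated Flt1-203, whose end is printed above, held 35.5%, 24.9% and 24.8% of Flt1 TPM in Tet2 KO libraries, against 17%, 29.9% and 27.0% in Tet2 WT libraries (difference 3.71 ± 5.29 percentage points; exact permutation p = 0.6). The full-length Flt1-202 held 19.3% ± 8.61 in Tet2 KO and 23.8% ± 9.08 in Tet2 WT (SD, n = 3 each). Flt1 transcripts without a coding sequence together held 52.4% ± 10.1 in Tet2 KO and 51.5% ± 8.41 in Tet2 WT. Among these, Flt1-201 held 22.9%, 37.3% and 41.7% in Tet2 KO libraries, against 16.1%, 6.33% and 47.9% in Tet2 WT libraries.

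Among the shares compared, those whose groups did not overlap belonged to the neuropilin genes. Nrp1-201, the protein-coding form of 923 residues, held 82.0%, 80.4% and 81.8% of Nrp1 TPM in Tet2 KO libraries, against 78.4%, 79.9% and 79.4% in Tet2 WT libraries (difference 2.18 ± 0.66 percentage points; exact permutation p = 0.1). Nrp2-201 held 51.7%, 32.4% and 36.6% of Nrp2 TPM in Tet2 KO libraries, against 21.4%, 30.7% and 32.0% in Tet2 WT libraries (difference 12.2 ± 6.76 percentage points; exact permutation p = 0.1). Nrp2-205 held 18.8%, 21.8% and 19.7% in Tet2 KO libraries, against 23.8%, 25.7% and 24.7% in Tet2 WT libraries (exact permutation p = 0.1). The 4 Nrp2 coding transcripts that end at the distal last exon, a grouping chosen after seeing the data, together held 18.3%, 39.2% and 26.2% in Tet2 KO libraries, against 44.4%, 33.0% and 41.7% in Tet2 WT libraries, and their groups overlapped (difference −11.8 ± 7.0 percentage points; exact permutation p = 0.2). The values of 0.1 are the smallest the design allows, and over the 24 shares compared the smallest Benjamini-Hochberg adjusted p was 0.60. Shares of the other genes were not tested, and Pgf-201, given with its values before, did not overlap either. Vegfc-203 held 0%, 0% and 26.7% of Vegfc TPM in Tet2 KO libraries, against 27.4%, 34.5% and 32.5% in Tet2 WT libraries. Vegfd-201 held 6.58%, 16.9% and 29.7% of Vegfd TPM in Tet2 KO libraries, against 41.3%, 38.9% and 49.7% in Tet2 WT libraries. The rest was Vegfd-202, a retained-intron transcript without a coding sequence, at 70.3% to 93.4% in Tet2 KO and 50.3% to 61.1% in Tet2 WT. Vegfc-203 and Vegfd-201 also lay lower in every Tet2 KO library, on the few Vegfc and Vegfd counts of that genotype.

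**Figure D5:**
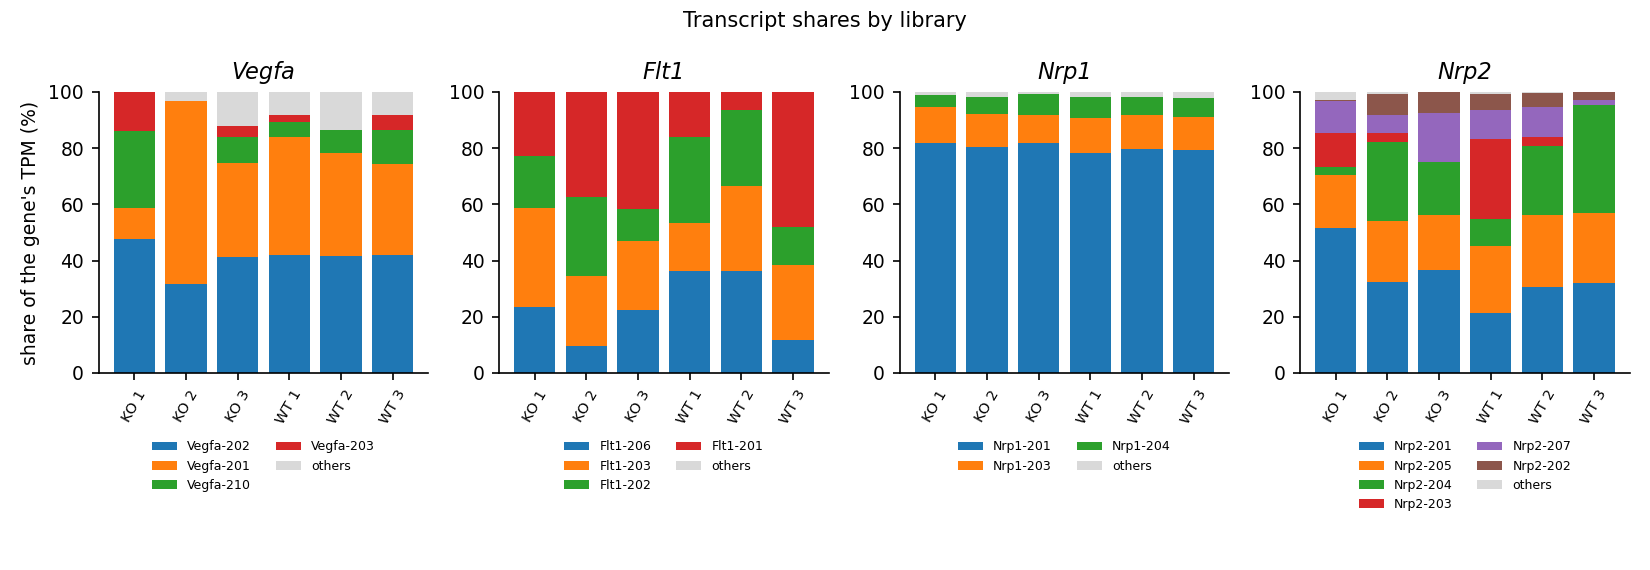
Share of each gene's TPM (%) held by its transcripts in each library for Vegfa, Flt1, Nrp1 and Nrp2, Tet2 KO at the left and Tet2 WT at the right of each panel. Nrp1-201 takes 80.4% to 82.0% in Tet2 KO and 78.4% to 79.9% in Tet2 WT, while the Vegfa-201 share runs over 11.1% to 65.3% in Tet2 KO and 32.3% to 41.8% in Tet2 WT.

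Genes that act around the VEGF receptors were described by list. Of 39 intracellular signalling genes downstream of VEGF receptors, 7 rose, 6 fell and 26 were not called, with a median log2 fold change of 0.21. Over all tested genes, 6.11% were called higher and 10.1% lower, with a median of 0.00. Plcg2, a phospholipase C abundant in blood cells, averaged 132 ± 8.08 CPM in Tet2 KO, against 71.6 ± 12 CPM in Tet2 WT (SD, n = 3 each) and rose by 0.89 ± 0.15 on the log2 scale (edgeR adjusted p = 0.00307). Prkcb, a protein kinase C, rose by 0.82 ± 0.16, the p38 kinase gene Mapk14 by 0.65 ± 0.13, and Nfatc1, a calcineurin-regulated transcription factor, by 0.53 ± 0.11. Scaled to the pan-macrophage markers, 0 of the 39 were called higher and 20 were called lower, and Mapk14 (−0.058) and Nfatc1 (−0.19) changed sign. Sphk1, a sphingosine kinase, fell by 2.35 ± 0.40, Nfatc4 by 1.84 ± 0.27, the Src-family kinase gene Yes1 by 1.41 ± 0.33 and Prkca by 1.30 ± 0.21. Without Tet2 KO replicate 1, Tet2 KO replicate 3 or Tet2 WT replicate 1, 4, 3 and 4 of the 39 were called higher, and without Tet2 WT replicate 1 or replicate 3, 3 were called lower. The calls lost included Mapk14 without Tet2 KO replicate 3, and Yes1 without Tet2 WT replicate 1 or replicate 3.

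Of 13 tested genes that process VEGFs or hold and release them from matrix, 7 fell and 0 rose. Their median log2 fold change was −2.39, against 0.00 over all tested genes, of which 10.1% were called lower and 6.11% higher. Ccn2, a matricellular protein gene whose product binds VEGF-A, averaged 19.9 ± 2.18 CPM in Tet2 KO, against 215 ± 49.3 CPM in Tet2 WT and fell by 3.43 ± 0.19 on the log2 scale (edgeR adjusted p = 8.28e-05). Hspg2, which encodes the heparan sulphate proteoglycan perlecan, fell by 3.16 ± 0.32, the matrix protease gene Mmp2 by 2.69 ± 0.33, and the proprotein convertase gene Pcsk5 by 2.21 ± 0.24. The count of genes that rose was 2, with 8 lower, without Tet2 KO replicate 2, and 1, with 7 lower, without Tet2 WT replicate 2 or replicate 3. The called members also include Ccbe1 (−2.84), whose product helps the cleavage of VEGF-C. Fibroblast markers fell in the same libraries, and their part in this list was not tested.

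Of 13 tested class 3 semaphorins, plexins and GIPC adaptors of neuropilins, 4 fell and 0 rose, against 10.1% lower and 6.11% higher over all tested genes. Plxna2, a semaphorin receptor, averaged 7.24 ± 0.22 CPM in Tet2 KO, against 22.5 ± 1.26 CPM in Tet2 WT and fell by 1.64 ± 0.16 on the log2 scale (edgeR adjusted p = 0.000232). The secreted neuropilin ligands Sema3d, Sema3c and Sema3b fell by 3.11 ± 0.38, 2.69 ± 0.64 and 2.24 ± 0.36. Scaled to the pan-macrophage markers, 8 of the 13 were called lower. The call of Sema3c was lost without Tet2 KO replicate 3, Tet2 WT replicate 1 or Tet2 WT replicate 2.

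Of 8 oxygen-sensing genes, 1 fell and 7 were not called, against 10.1% lower and 6.11% higher over all tested genes. Without Tet2 KO replicate 2 the counts were 1 higher and 2 lower, and scaled to the pan-macrophage markers 5 were called lower and 0 higher. Egln3, a prolyl hydroxylase gene that hypoxia induces, was called lower (−2.46 ± 0.66, edgeR adjusted p = 0.0325) at 0.615 ± 0.434 CPM in Tet2 KO, against 3.36 ± 1.25 CPM in Tet2 WT, and the call was lost in 4 of 6 fits without 1 library. Hif1a, the oxygen-regulated subunit that drives Vegfa transcription in hypoxia, was at 110 CPM in Tet2 KO, against 96.6 CPM in Tet2 WT on average (0.19, edgeR adjusted p = 0.387). Epas1, the related subunit, was at 8.22 CPM in Tet2 KO, against 17.9 CPM in Tet2 WT (−1.12, edgeR adjusted p = 0.0711).

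Of 14 genes known to be induced by VEGF in endothelial cells, 2 were called higher and 3 lower, with a median of −0.39. Over all tested genes the shares were 6.11% higher and 10.1% lower, with a median of 0.00. Kcne3, a potassium channel subunit gene, was higher by 1.18 ± 0.32 and the immediate early gene Nr4a1 by 0.80 ± 0.22, while Igfbp3 fell by 2.60 ± 0.48, Plvap by 2.18 ± 0.56 and Unc5b by 1.61 ± 0.36. Scaled to the pan-macrophage markers, 0 of the 14 were called higher and 6 lower, with a median of −1.11. Without Tet2 WT replicate 1 the counts were 0 higher and 1 lower, and without Tet2 WT replicate 3 they were 1 and 1. Igfbp3 was the member called in every fit without 1 library, and Kcne3, Nr4a1, Plvap and Unc5b each lost the call in 3 or 4 of the 6. Kcne3 also lost it with the replicate number as a block. Without both libraries numbered 1, Igfbp3, Kcne3, Plvap and Unc5b lost the call, and Igfbp3 also lost it with no low-count filter. The higher count was 1 and the lower 2 without Tet2 KO replicate 1 or replicate 3, and the higher count was 1 without Tet2 KO replicate 2. Of 10 angiopoietin and Notch partners of VEGF signalling, 3 fell and 0 rose, in every fit without 1 library as well, and 6 were called lower when scaled to the pan-macrophage markers. Angpt1, the vessel-stabilising ligand of Tek, averaged 2.34 ± 0.52 CPM in Tet2 KO, against 19.1 ± 6.40 CPM in Tet2 WT and fell by 3.04 ± 0.31 on the log2 scale (edgeR adjusted p = 0.000232). Its receptor gene Tek fell by 2.59 ± 0.21, and the Notch target Hes1 by 0.96 ± 0.19.

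The genes with the pattern most like a member were found by the root mean square difference of 6 log2 CPM values, each gene centred on its own mean, over 10971 other protein-coding genes whose mean log2 CPM reached 2. This describes 6 libraries and is no test. Nearest to Vegfa were Lpar1, Abca6 and Kazald1 (differences of 0.090, 0.097 and 0.112 log2 units, against a median of 1.18 over all those genes). Nearest to Kdr were Rasip1, C1qtnf9 and Gpihbp1 (0.164, 0.203 and 0.245), and nearest to Flt1 were Tie1, Adgrf5 and C1qtnf9 (0.160, 0.205 and 0.211). All 5 of these genes had their highest level in Tet2 WT replicate 3. Nearest to Nrp1 were Snrnp40, Zfp706 and Rab3gap2 (0.016, 0.019 and 0.028, against a median of 0.26).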

How the data were processed

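Paired-end RNA-seq was made from 6 samples of sorted cardiac macrophages, 3 per genotype. The submitters' processing notes name Trim Galore 0.6.4, kallisto 0.44.0 and the GRCm38 build. Per the file headers, the authors deposited an estimated count and a TPM value for each transcript. Estimated counts are not normalized and TPM is scaled within each library, with transcript and effective lengths given beside them. No source used here gives the annotation release.

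Of 118783 transcripts, 116622 (98.2%) matched GENCODE M21 by identifier without version, and 99.8% of these had the same length there. The rest, at most 0.671% of a library's counts, were left out. Estimated counts were summed per gene, rounded, filtered with filterByExpr, TMM-scaled and compared between genotypes by the robust quasi-likelihood fit of edgeR 4.0.16 (R 4.3.3). The model held genotype alone, and p-values were adjusted over all tested features by Benjamini-Hochberg. Transcripts were tested in the same way. The scripts were tested on simulated data. The libraries held 37349505 to 55771087 counts, with 3 libraries a group. No pair of libraries of a genotype agreed within sampling noise (chi-square per gene of at least 69.2).

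The members and lists were chosen with earlier results of these data known. The genes named were all members, Tet2 and Vegfd, up to 4 called members of each pathway list in each direction by smallest p, transcripts holding at least 5% of a gene's TPM, and the 3 genes most like Vegfa, Kdr, Flt1 and Nrp1. Hif1a, Epas1, Ccbe1, Mmrn1, Pdpn, Foxc2, Eng and Clec14a were named after their values were seen. Alternatives were RLE and pan-macrophage scaling, no filter, leaving out each library or both numbered 1, a replicate block, length-scaled TPM counts, DESeq2 1.42.0, limma 3.58.1 on log2(TPM + 1) and log2(TPM + 0.1), shares by counts and a pseudocount of 0.1 for marker-relative levels. Two-sided exact permutation tests covered single values.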

Additional observations from a re-analysis of the deposited data

How the results depend on the processing

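Vegfa and Pgf kept their direction and call under all 15 alternatives, with log2 fold changes of −3.09 to −1.96 and −3.59 to −2.53, and Flt4 was called under none. Scaled to the pan-macrophage markers, 7749 genes were called (21 higher, 7728 lower) and 6 members, all 6 lower: Vegfb was at −1.18, Nrp1 at −0.40 and Nrp2 at −0.60. Under that scaling Kdr was at −0.31, Flt1 at −0.66, Tet2 at −0.38, Mapk14 at −0.058, Nfatc1 at −0.19, Rasip1 at −0.21, C1qtnf9 at −0.46, Gpihbp1 at −0.35, Tie1 at −0.38, Adgrf5 at −0.58, Snrnp40 at −0.40, Zfp706 at −0.37 and Rab3gap2 at −0.40, all reversed, while the median of all genes moved by −0.72. By limma, 384 genes were higher on log2(TPM + 1) and 400 on log2(TPM + 0.1), and Vegfb was called at −0.59 and −0.61. Without both libraries numbered 1, 1188 genes were called (177 higher, 1011 lower), Vegfc lost its call at −1.47 and Flt1 was at −0.12. On length-scaled counts Flt1 was at −0.014. The cause of these shifts was not tested.

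Without 1 library, the fits called 1382 to 3141 genes (350 to 1402 higher, 1032 to 1739 lower), 2 to 4 members with 0 to 1 higher, 323 to 1220 transcripts and 0 to 2 member transcripts. Genes called were fewest without Tet2 WT replicate 1 (1382) and without Tet2 KO replicate 3 (1750). Log2 fold changes ran over −2.24 to −1.56 for Vegfc, 0.045 to 1.32 for Kdr, −0.29 to 1.01 for Flt1, 0.22 to 0.42 for Nrp1, −0.046 to 0.25 for Nrp2, −0.060 to 1.30 for C1qtnf9 and −0.18 to 1.08 for Adgrf5. For transcripts they ran over −0.61 to 2.80 (Flt1-201), −0.62 to 0.53 (Flt1-202), −0.42 to 1.24 (Flt1-203), −0.48 to 0.012 (Flt1-206), −0.012 to 1.36 (Kdr-201), −0.17 to 0.16 (Nrp1-204), −2.14 to 1.30 (Nrp2-203), −0.94 to 0.19 (Nrp2-204) and −0.30 to 0.083 (Nrp2-205).

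Whether the replicate numbers of the labels pair the libraries could not be decided from 3 libraries a group. Deviations of same-numbered libraries correlated weakly, at 0.06, 0.13 and 0.04, although each library correlated best with its own number. With the replicate number as a block, 2347 genes were called and every member kept its side of the threshold. The block called 592 transcripts and 1 member transcript, and put Flt1-202 at −0.022, Flt1-201 at 1.18, Nrp2-203 at 0.085 and Nrp2-202 at −0.0091, all reversed. Flt4 and the Tet2 KO values of Vegfc and Vegfd rest on only 21 to 174 estimated counts a library. The part of depth in their spread was not tested.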
